A study of Mus musculus with 15 samples.

Results

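The genes of provisional matrix and fibrinolysis were described in mouse bone marrow-derived macrophages (BMDMs), with 9 members chosen by symbol: Fn1, Thbs1, Spp1, Tgfbi, F13a1, Tgm2, Plau, Plaur and Serpinb2. They are 9 of the 53465 Ensembl genes in the count matrix, and all 9 were among the 13938 genes that passed the filter on low counts and were tested. A provisional matrix is the fibrin and fibronectin scaffold that fills a wound before collagen is laid down. Transglutaminases crosslink it, matricellular proteins bound in it signal to cells, and plasmin dissolves it again once urokinase, held at the cell surface by its receptor, has cleaved plasminogen. Macrophages are known to supply many of these proteins during tissue repair, and IL-4 and IL-13 are the classical inducers of the M2 state that is linked to repair.

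Bone marrow cells were grown for 7 days with 20 ng/ml M-CSF, and the mature BMDMs were left without cytokine (control) or treated for 24 h with IL-4 (10 ng/ml), IL-4/IL-6, IL-13 (40 ng/ml) or IL-13/IL-6, where IL-6 was used at 40 ng/ml. Each of the 5 groups had 3 libraries of bulk RNA. No group received IL-6 alone, so the effect of IL-6 co-addition was measured only on top of IL-4 or IL-13, and the doses of IL-4 and IL-13 differed. Per the methods of the study, BMDMs came from mice of 8 to 12 weeks, all groups alike. The labels do not say whether the 3 libraries of a group came from separate animals, so p-values measure the spread between these libraries only.

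Libraries held 17001352 to 18918686 counts. Replicates differed by more than counting noise in every pair, and 2 libraries stood apart from their replicates: the mean chi-square per gene was 23.8 and 42.2 for pairs with IL-4/IL-6 replicate 2 against 6.97 for the other pair of that group, and 20.6 and 15.9 for pairs with IL-13 replicate 1 against 3.75. Both enter the results below, and the IL-6 steps and the differences between cytokines are also given without both. The macrophage label was checked against its markers, and all 8 (Adgre1, Csf1r, Cd68, Fcgr1, Mertk, Lyz2, Itgam and Cd14) were detected in all groups, with a summed level of 18935 to 21114 normalized CPM (the count scaled to library size with TMM factors) in control and 10900 to 19800 in the cytokine groups. Of these 8, 1 was higher and 5 lower with IL-4 than in control, and 3 and 3 with IL-13. Mertk fell furthest, from 143 CPM in control to 8.27 with IL-4 and 14.5 with IL-13. The control libraries also held RNA of marker genes of other cell types. Whether such cells were the source of this RNA was not tested. The granulocyte and precursor list (8 genes, 7 tested) summed to 460.2 to 547 CPM in control and to 0.979 to 2.14 CPM in every cytokine library, and the megakaryocyte and platelet list (8 genes) to 521 to 546 CPM against 53.9 to 126 CPM, most of the latter from Vwf. Without Vwf the other 7 genes of that list summed to 317 to 352 CPM in control and 3.38 to 7.52 CPM elsewhere. The stromal list (8 genes, 3 tested) reached 17.1 to 21.7 CPM in control and at most 0.634 CPM elsewhere, with Col1a1 at 0 in all 12 cytokine libraries. In the monocyte list (6 genes) Ly6c2 fell from 26.8 CPM in control to 0.0548 to 0.208 CPM, while the list's sum, carried mostly by Chil3, was 447 to 454 CPM in control and between 239 and 1713 CPM with cytokines. The endothelial list (6 genes, 3 tested), mostly Kdr, ranged from 15.3 to 19.0 CPM in control and up to 41.0 CPM with IL-13/IL-6, while Tie1 was at 3.28 CPM in control and at most 0.103 CPM elsewhere.

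**Figure D1:**
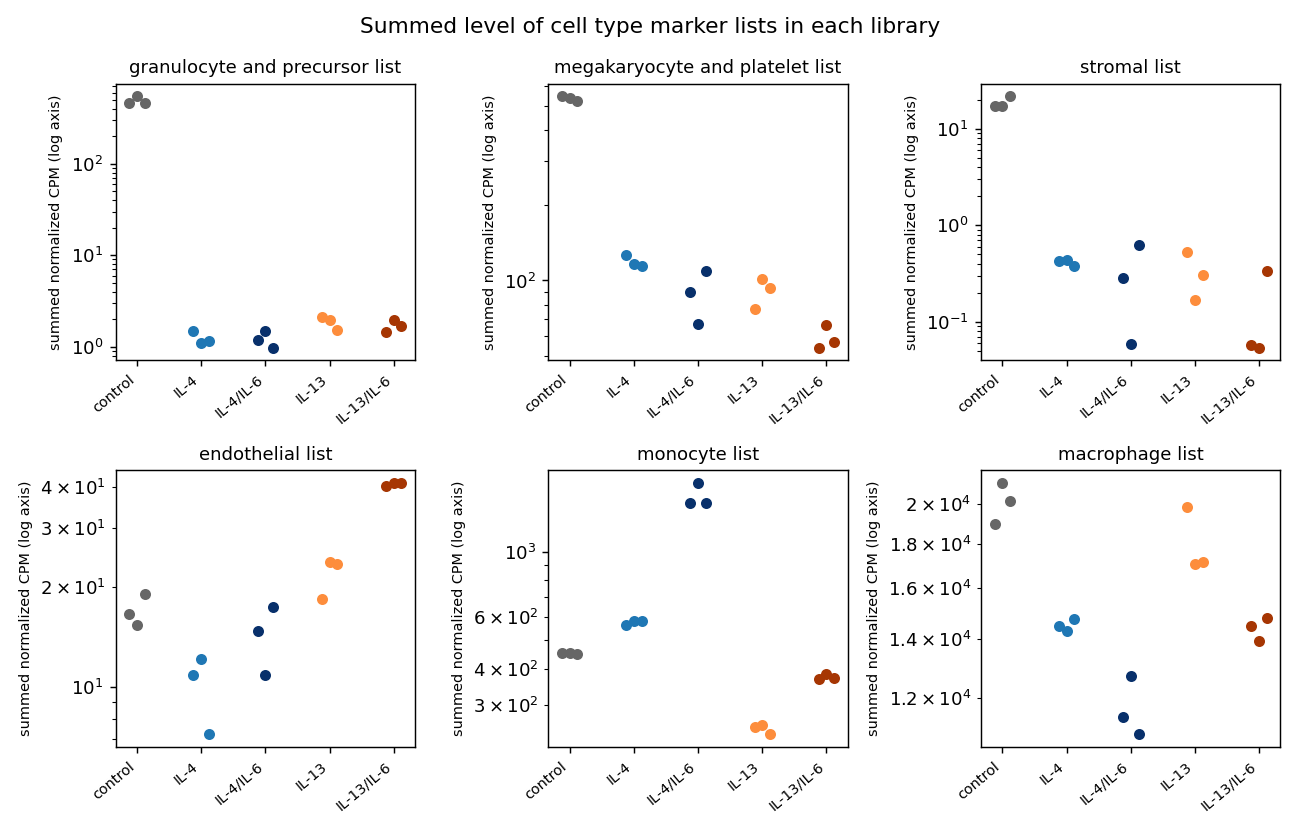
Summed normalized CPM of 6 marker lists (y axis, log scale) in each of the 15 libraries (points), by group (x axis). The 3 control libraries lie above all others for the granulocyte (460.2 to 547 CPM), megakaryocyte and stromal lists, and the macrophage list does not fall below 10900 CPM in any library.

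Fibronectin, Thbs1, osteopontin and Tgfbi are the secreted adhesion and matricellular proteins of the set. Fn1 encodes fibronectin, the integrin ligand that is crosslinked into fibrin clots. Its normalized CPM was 44.6, 51.4 and 55.5 in the 3 control libraries, 522, 542 and 441 with IL-4, and 202, 288 and 296 with IL-13. With IL-6 co-addition it was 2236, 1446 and 2559 in IL-4/IL-6 and 1234, 1509.8 and 1294 in IL-13/IL-6. All libraries of a group lay above those of the group before it in the order control, IL-13, IL-4 and then both IL-6 groups, and only the 2 IL-6 groups overlapped. Fn1 rose 9.93-fold with IL-4 (log2 fold change 3.31, SE 0.19, adjusted p = 1.04e-10, edgeR's quasi-likelihood test) and 5.19-fold with IL-13 (2.38, SE 0.18, adjusted p = 7.22e-09). Co-addition of IL-6 raised it a further 4.15-fold over IL-4 (2.05, SE 0.18, adjusted p = 4.71e-08) and 5.13-fold over IL-13 (2.36, SE 0.18, adjusted p = 1.95e-08), which put IL-4/IL-6 41.2-fold and IL-13/IL-6 26.7-fold above control. Without the 2 libraries that stood apart, the log2 change with IL-6 was 2.24 over IL-4 and 2.196 over IL-13. Fn1 thus increased at each step of the design. In bulk samples fewer cells of a type and less RNA per cell cannot be told apart, here and in all results that follow.

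Tgfbi, a secreted protein that links collagen and fibronectin to integrins, followed the same order of groups. Control libraries held 232, 232 and 262 CPM, IL-13 757, 708 and 666, and IL-4 936, 985 and 944, and the IL-6 groups 3125, 2851 and 2635 (IL-4/IL-6) and 2549.9, 2357 and 2576 (IL-13/IL-6). No 2 groups overlapped. The increase over control was 3.95-fold with IL-4 (log2 fold change 1.98, SE 0.08, adjusted p = 6.44e-13) and 2.94-fold with IL-13 (1.55, SE 0.07, adjusted p = 1.82e-11), and IL-6 added 3.01-fold to IL-4 (1.59, SE 0.07, adjusted p = 1.80e-11) and 3.51-fold to IL-13 (1.81, SE 0.07, adjusted p = 9.17e-12). These steps were 1.58 and 1.85 without the libraries that stood apart. Across the 15 libraries the log2 CPM of Tgfbi and Fn1 had a Pearson r of 0.985 (Spearman's rho 0.946), the highest Pearson r of the 36 pairs of members, where the points share 5 groups and are not independent.

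Spp1 encodes osteopontin, a phosphoprotein ligand of integrins and CD44, and was the member with the most RNA per length in every group. Its CPM was 3068, 3065 and 2796 in control, 2070.5, 1975 and 2253 with IL-4, and 3258, 2667 and 2751 with IL-13. IL-4 alone lowered it by 0.50 on the log2 scale (SE 0.11, adjusted p = 4.76e-04, no overlap), whereas the IL-13 libraries overlapped those of control (log2 fold change -0.04, 95% confidence interval -0.26 to 0.18, adjusted p = 0.755). In the IL-6 groups the values were 5239, 6769.7 and 4791 with IL-4 and 13148, 12273 and 11751 with IL-13, all above every library of the other 3 groups. IL-6 raised Spp1 2.67-fold over IL-4 (1.42, SE 0.11, adjusted p = 9.68e-09) and 4.28-fold over IL-13 (2.099, SE 0.11, adjusted p = 1.46e-10), and by 1.24 and 2.185 on the log2 scale without the libraries that stood apart. The effect of IL-6 was smaller with IL-4 than with IL-13 (interaction -0.68 on the log2 scale, SE 0.15, adjusted p = 0.00732), and this difference was -0.94 (adjusted p = 1.23e-08) without the 2 libraries that stood apart, of which IL-4/IL-6 replicate 2 held the highest Spp1 value of its group.

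Thbs1 encodes thrombospondin 1, a platelet and macrophage glycoprotein that can activate latent TGF-beta and that binds CD36 and CD47. It had the largest change of the 9 genes: 351, 322 and 348 CPM in control against 1.12, 1.49 and 1.96 with IL-4, and 1.61, 1.86 and 2.78 with IL-13. Counts in the cytokine libraries were between 11 and 54, against at least 5814 in control. The fall was 222-fold with IL-4 (log2 fold change -7.80, SE 0.19, adjusted p = 4.32e-15) and 162-fold with IL-13 (-7.34, SE 0.18, adjusted p = 1.31e-14), place 65 of the 13938 tested genes by size of change in both. With IL-6, levels were 0.624, 0.884 and 0.806 CPM (IL-4/IL-6) and 1.45, 0.814 and 2.17 CPM (IL-13/IL-6). Without the libraries that stood apart the steps with IL-6 were -1.10 over IL-4 and -0.67 over IL-13. The step from IL-4 to IL-4/IL-6 was -0.98 (SE 0.34, adjusted p = 0.0316), a call that was lost without IL-4 replicate 2 (adjusted p = 0.0563), without IL-4 replicate 3 (0.13) or without IL-4/IL-6 replicate 1 (0.0977), and the step from IL-13 to IL-13/IL-6 was not called (-0.51, 95% confidence interval -1.09 to 0.08, adjusted p = 0.213) but was without IL-13/IL-6 replicate 3 (-0.91, adjusted p = 0.0343). The control libraries that held this Thbs1 RNA were the same that held the granulocyte, platelet and stromal marker RNA given above, and Thbs1 is known from platelets as well as macrophages. Cytokine addition and this difference in marker RNA cannot be told apart.

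The 250 bases upstream of the start were searched in the 5 members with an entry in the RefSeq promoter table (GRCm38.p6), Spp1, Tgfbi, F13a1, Plaur and Serpinb2; Fn1, Thbs1, Tgm2 and Plau were not analysed in this way. The motifs were TTCNNNGAA, the general STAT site, the same letters spaced 1 base wider (TTC, any 4 bases, GAA), the spacing preferred by STAT6, the factor that IL-4 and IL-13 activate, and TGANTCA, an AP-1 site. Each reads the same on both strands as written, and none contains another. They occurred in 7.02%, 5.85% and 6.75% of 32851 promoter windows of this length. Spp1 and Tgfbi are shown because both rose with IL-6 on top of either cytokine, and neither held a match, so no base is in capitals. Spp1 has 2 starts in the table, and the window of the second, chr5:104435942-104436191, held no match either. The Spp1 window printed is chr5:104434861-104435110 (plus strand) and the Tgfbi window chr13:56609336-56609585 (plus strand).
Spp1: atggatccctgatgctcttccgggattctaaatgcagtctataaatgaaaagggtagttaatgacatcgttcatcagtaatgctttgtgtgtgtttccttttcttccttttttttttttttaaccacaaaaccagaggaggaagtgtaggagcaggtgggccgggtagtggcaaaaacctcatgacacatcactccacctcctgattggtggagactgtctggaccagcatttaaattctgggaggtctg
Tgfbi: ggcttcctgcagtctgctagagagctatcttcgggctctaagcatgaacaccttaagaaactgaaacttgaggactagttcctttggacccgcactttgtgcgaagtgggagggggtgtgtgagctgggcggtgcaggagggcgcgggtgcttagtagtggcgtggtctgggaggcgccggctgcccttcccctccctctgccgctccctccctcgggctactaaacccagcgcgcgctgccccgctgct

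**Figure D2:**
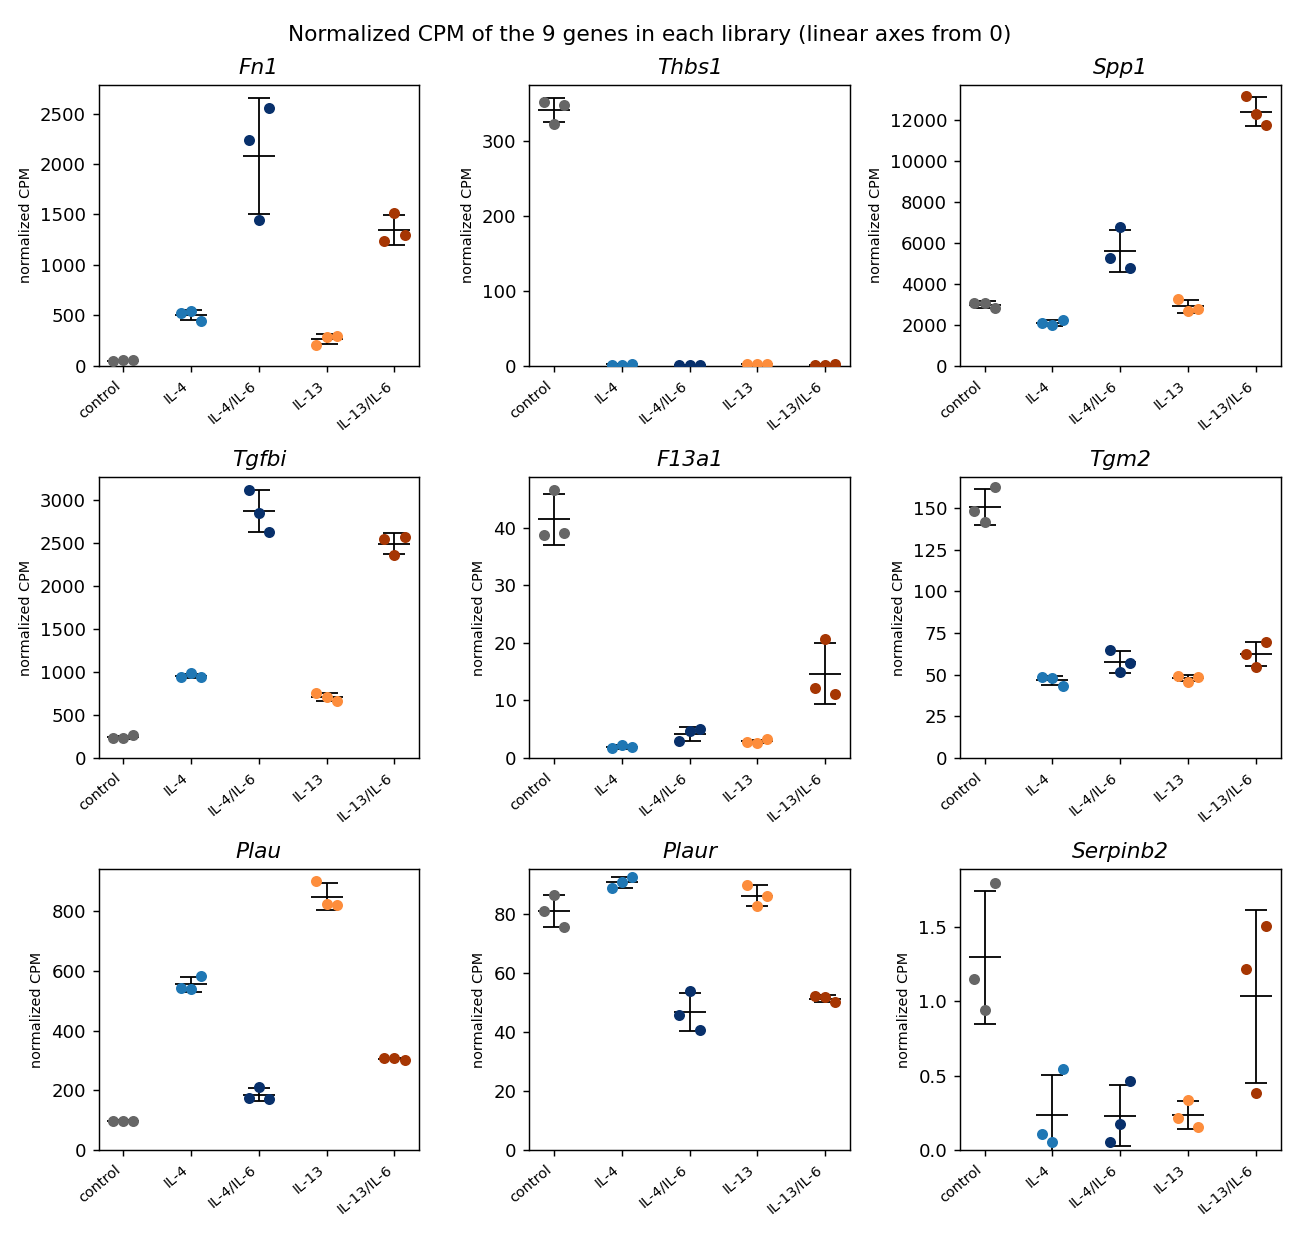
Normalized CPM (y axes, linear from 0) of the 9 genes in each of the 15 libraries (points), by group (x axes), with the mean and SD of the 3 libraries of a group (bars, cut at 0 for Serpinb2). Fn1 and Tgfbi climb from control to the single cytokines and again with IL-6, Plau peaks with the single cytokines (up to 900.3 CPM with IL-13), and Thbs1, F13a1 and Tgm2 are highest in control.

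F13a1 and Tgm2 encode transglutaminases that crosslink matrix proteins: F13a1 the catalytic subunit of coagulation factor XIII, which stabilizes fibrin, and Tgm2 tissue transglutaminase, which crosslinks fibronectin among others. F13a1 had 38.8, 46.5 and 39.0 CPM in control, 1.66, 2.21 and 1.80 with IL-4, and 2.68, 2.65 and 3.19 with IL-13. It fell 21.9-fold with IL-4 (log2 fold change -4.45, SE 0.25, adjusted p = 6.39e-11) and 14.5-fold with IL-13 (-3.86, SE 0.23, adjusted p = 2.72e-10). All 8 genes of the megakaryocyte and platelet list and 5 of the 6 of the monocyte list also fell with either cytokine. The other monocyte gene, Chil3, rose with IL-4 and was not called with IL-13. F13a1 is known to be made by megakaryocytes and monocytes as well as macrophages. Cytokine addition and this difference in marker RNA cannot be told apart.

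IL-6 co-addition turned F13a1 upward again, to 2.84, 4.60 and 5.07 CPM in IL-4/IL-6 and to 12.1, 20.7 and 11.1 CPM in IL-13/IL-6. The log2 increase was 1.14 over IL-4 (SE 0.29, adjusted p = 0.00418) and 2.36 over IL-13 (5.13-fold, SE 0.24, adjusted p = 6.11e-07), and IL-13/IL-6 stayed 2.83-fold below control. The increases were 1.05 and 2.31 without the libraries that stood apart. The granulocyte list was at or under 2.14 CPM in all libraries of these contrasts and none of its 7 tested genes was called. Of the 6 monocyte genes Chil3 rose in both contrasts, while 3 fell over IL-4 and 2 over IL-13. Ly6c2, at 0.0548 to 0.208 CPM, was not called. The part of these markers in the rise of F13a1 was not tested. Of the 8 megakaryocyte genes Ppbp rose (1.59 to 2.80 CPM with IL-4, 1.87 to 4.16 CPM with IL-13, adjusted p = 0.0241 and 0.00149), while Gp1ba and Vwf fell and 5 were not called. The difference between the effects of IL-6 with IL-4 and with IL-13 was -1.22 (SE 0.38, 95% confidence interval -2.03 to -0.41, adjusted p = 0.0639), which did not pass the threshold here but did with DESeq2 (adjusted p = 0.0115), with a replicate block (0.0359) and without the 2 libraries that stood apart (0.037). F13a1 is shown because it fell with the single cytokines and rose with IL-6 co-addition. Its window, chr13:37050245-37050494 (minus strand), held none of the motifs, and nor did that of its second start in the table, chr13:37049214-37049463.
F13a1: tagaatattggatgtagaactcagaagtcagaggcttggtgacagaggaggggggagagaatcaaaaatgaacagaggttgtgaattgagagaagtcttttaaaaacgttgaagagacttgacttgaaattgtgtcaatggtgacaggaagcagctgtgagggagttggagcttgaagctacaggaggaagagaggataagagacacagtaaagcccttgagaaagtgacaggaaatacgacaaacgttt

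Tgm2 had 148, 142 and 163 CPM in control and 43.3 to 69.5 CPM in the 12 cytokine libraries, with no overlap. It fell 3.24-fold with IL-4 (log2 fold change -1.70, SE 0.10, adjusted p = 9.80e-11) and 3.15-fold with IL-13 (-1.65, SE 0.10, adjusted p = 1.92e-10). IL-6 changed it little: 46.6 ± 2.81 CPM (SD, n = 3) with IL-4 became 57.6 ± 6.75, and 47.9 ± 1.96 with IL-13 became 62.3 ± 7.38. The first step was called (0.31, SE 0.10, adjusted p = 0.018) but lost with upper-quartile scaling (0.0961), in a fit of the contrast's own groups (0.0802) and without IL-4 replicate 2 (0.0555), IL-4 replicate 3 (0.121) or IL-4/IL-6 replicate 1 (0.169). The second (0.38, SE 0.10, adjusted p = 0.00699) was lost without IL-13/IL-6 replicate 3 (0.0686). Both were called, at 0.37 and 0.39, without the libraries that stood apart.

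Plau, Plaur and Serpinb2 encode the macrophage side of plasminogen activation: urokinase, its surface receptor, and the inhibitor known as PAI-2. Plau had 98.5, 96.3 and 98.2 CPM in control, 541, 541 and 583 with IL-4, and 900.3, 824 and 822 with IL-13. With IL-6 it was 174, 211 and 172 (IL-4/IL-6) and 308, 308 and 303 (IL-13/IL-6). No 2 groups overlapped, and the order was control, IL-4/IL-6, IL-13/IL-6, IL-4 and IL-13. Plau rose 5.68-fold with IL-4 (log2 fold change 2.51, SE 0.08, adjusted p = 4.65e-14) and 8.69-fold with IL-13 (3.12, SE 0.08, adjusted p = 1.44e-14), and IL-6 lowered it 2.99-fold from IL-4 (-1.58, SE 0.07, adjusted p = 1.86e-11) and 2.77-fold from IL-13 (-1.47, SE 0.07, adjusted p = 8.11e-11). Without the libraries that stood apart the decreases were -1.695 and -1.435 on the log2 scale. Plau still lay 1.90-fold (IL-4/IL-6) and 3.13-fold (IL-13/IL-6) above control. Plau was thus raised by the same cytokines as Fn1 and Tgfbi and moved the opposite way when IL-6 was added.

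Plaur did not pass the test with either single cytokine, at 81.0, 86.3 and 75.5 CPM in control, 88.8, 90.8 and 92.3 with IL-4 and 89.8, 82.5 and 86.0 with IL-13. The IL-4 libraries lay just above those of control and the IL-13 libraries overlapped them. The log2 fold change was 0.16 with IL-4 (95% confidence interval -0.01 to 0.34, adjusted p = 0.0909) and 0.09 with IL-13 (-0.09 to 0.26, adjusted p = 0.369). The IL-4 difference was called in a fit of the contrast's own groups (0.20, adjusted p = 5.31e-04), without the filter on low counts (0.24, adjusted p = 0.0212) and without control replicate 2 (0.22, adjusted p = 0.0462). With IL-6, Plaur was 45.8, 53.7 and 40.7 CPM in IL-4/IL-6 and 52.0, 51.7 and 50.1 CPM in IL-13/IL-6, under every library of the other 3 groups. The fall was 1.94-fold from IL-4 (-0.96, SE 0.08, adjusted p = 6.81e-08) and 1.68-fold from IL-13 (-0.75, SE 0.08, adjusted p = 2.43e-06). It was -1.08 and -0.73 on the log2 scale without the libraries that stood apart. The RNA of urokinase and that of its receptor therefore both decreased with IL-6 co-addition.

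Serpinb2 was close to the limit of detection, and reached the filter's 10 counts mainly in control and IL-13/IL-6. Its counts were 22, 17 and 32 in control, 2, 1 and 10 with IL-4, 1, 3 and 8 with IL-4/IL-6, 4, 6 and 3 with IL-13, and 21, 7 and 27 with IL-13/IL-6. All control libraries lay above those of IL-4, IL-4/IL-6 and IL-13, and overlapped with IL-13/IL-6. The fall was 5.35-fold with IL-4 (log2 fold change -2.42, SE 0.65, adjusted p = 0.00345) and 5.41-fold with IL-13 (-2.44, SE 0.65, adjusted p = 0.00392). The size of the IL-4 change rests on IL-4 replicate 3: without its 10 counts the group was at the floor of 3 counts per library, and no fold can be given. IL-13/IL-6 was 4.31-fold above IL-13 (2.11, SE 0.67, adjusted p = 0.0273), but the call was lost without IL-13 replicate 1 (0.0684) or 3 (0.107) and without IL-13/IL-6 replicate 1 (0.0841) or 3 (0.134). In a fit of the contrast's own groups Serpinb2 did not pass the filter and had no test. Without the libraries that stood apart the step was 2.04 (adjusted p = 0.0358). With all libraries, no change was called from IL-4 to IL-4/IL-6 (-0.03, 95% confidence interval -1.86 to 1.80, adjusted p = 0.984). Its exons overlap those of Serpinb10, a neighbor on the same strand with 0 to 34 counts per library, so these counts are uncertain.

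Plaur and Serpinb2 are shown because theirs were the only windows of the 5 searched genes with a match, printed in capitals. In the Plaur window, chr7:24462233-24462482 (plus strand), TGACTCA lay at bases -69 to -63 from the RefSeq start. Serpinb2 has 2 starts in the table, and the window of the second, chr1:107511260-107511509 (plus strand), held TGAATCA at -181 to -175 and the STAT match TTCCAAGAA at -77 to -69. The window of the first, chr1:107511173-107511422, ends just before the GENCODE start of the gene and held the same TGAATCA (at -94 to -88 from its own start) but no STAT match, so the STAT letters lie past that start. A match describes these letters and not a bound site.
Plaur: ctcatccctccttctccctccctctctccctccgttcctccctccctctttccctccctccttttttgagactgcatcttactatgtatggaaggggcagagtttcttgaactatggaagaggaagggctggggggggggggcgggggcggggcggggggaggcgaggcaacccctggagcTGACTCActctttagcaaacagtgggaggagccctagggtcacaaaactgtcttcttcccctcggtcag
Serpinb2: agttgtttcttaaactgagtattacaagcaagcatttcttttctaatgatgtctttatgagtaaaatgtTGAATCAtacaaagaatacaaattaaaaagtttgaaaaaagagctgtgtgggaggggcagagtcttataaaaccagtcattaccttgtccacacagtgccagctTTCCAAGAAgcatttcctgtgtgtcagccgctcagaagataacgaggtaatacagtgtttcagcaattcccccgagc

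Counted together, 3 of the 9 genes were higher and 5 lower with IL-4 than in control, where 32.1% and 35.9% of all tested genes were called higher and lower. With a log2 change past 1 in addition it was 3 higher and 4 lower, against 10.0% and 16.1% of all genes. Between IL-13 and control 3 were higher and 4 lower, all 7 past 1, where 29.0% and 31.1% of all genes were called and 7.74% and 12.6% were past 1. The median size of the log2 change was 2.42 with IL-4 and 2.38 with IL-13 over the members, and 0.57 and 0.46 over all genes. The members were chosen with earlier results of these data known, so their counts and medians beside all genes are descriptions only. Both contrasts use the same control libraries, which also carried the marker RNA given above. Of the members, Fn1, Tgfbi and Plau rose and Thbs1, F13a1, Tgm2 and Serpinb2 fell in each contrast. Without the libraries that stood apart all 7 were still called with IL-13, with Fn1 at 2.57 and Thbs1 at -7.15.

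With IL-6 on top of IL-4, 5 members were higher (Fn1, Spp1, Tgfbi, F13a1 and Tgm2) and 3 lower (Thbs1, Plau and Plaur), where 20.7% and 18.7% of all genes were called. Past a log2 change of 1 it was 4 higher and 1 lower (4.34% and 7.47% of all genes); the 1 was Plau, and with upper-quartile scaling Thbs1 and Plaur passed as well, to 3. That scaling shifted the median of all genes by -0.09 and the share of higher calls from 52.6% to 39.0%, and the other scaling tried (DESeq2's size factors) gave 51.9%. With IL-6 on top of IL-13, 6 members were higher (the same 5 and Serpinb2) and 2 lower (Plau and Plaur), against 12.1% and 13.5% of all genes, and 5 and 1 were past 1 (3.06% and 4.19%). The median size of the change was 1.14 over IL-4 and 1.81 over IL-13 for the members, and 0.30 and 0.21 for all genes. The same limit from the choice of members holds here. In these contrasts the granulocyte list lay between 0.979 and 2.14 CPM and the stromal list between 0.0542 and 0.634 CPM in all libraries. Of the other lists, the macrophage sum was lower with IL-6 (14309 to 14780 CPM with IL-4 against 10900 to 12704 CPM, 17051 to 19800 CPM with IL-13 against 13928 to 14819.7 CPM), most of it Lyz2 (9698 to 6852 CPM with IL-4, 12745 to 8692 CPM with IL-13), while 3 of the 8 macrophage genes, Adgre1 and Fcgr1 among them, rose in each contrast, and 5 and 2 fell. Kdr rose from 21.0 to 39.5 CPM from IL-13 to IL-13/IL-6 and Chil3, also a common M2 marker, from 548 to 1541 CPM from IL-4 to IL-4/IL-6; their part in the members' changes was not tested.

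**Figure D3:**
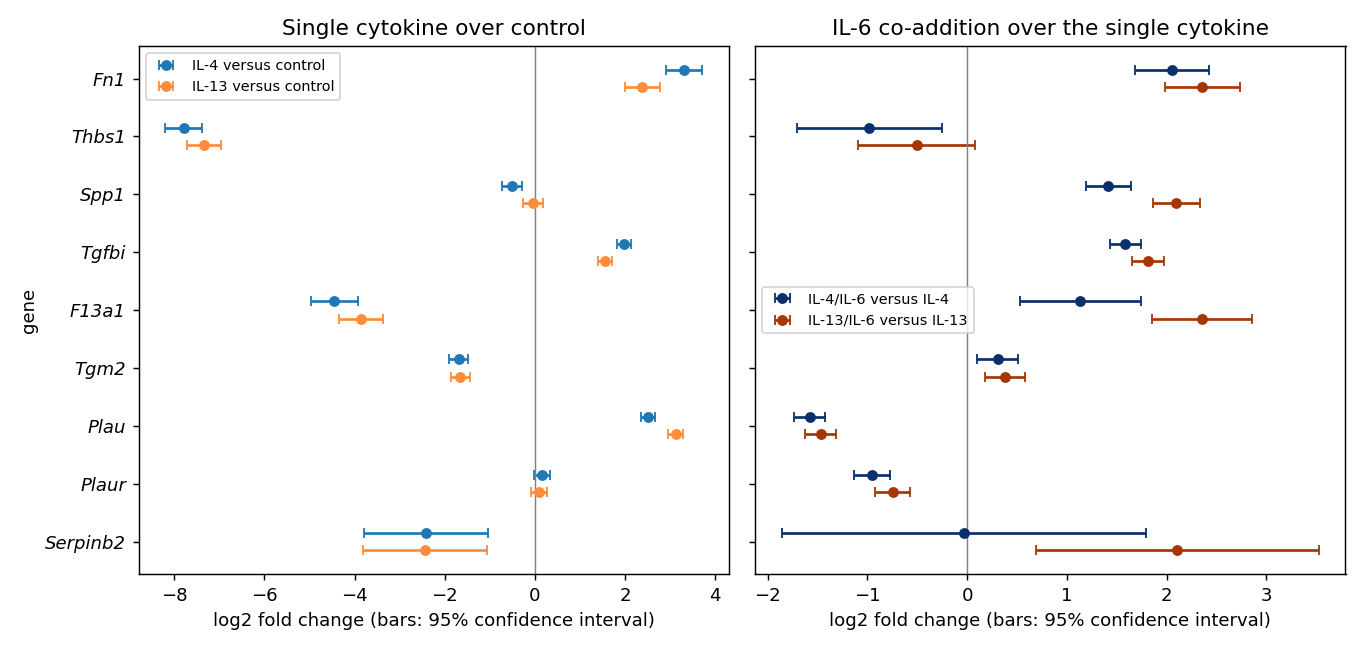
Log2 fold change (x axes, points) with 95% confidence interval (bars) of the 9 genes (y axis), for the single cytokines over control (left) and for IL-6 co-addition over the single cytokine (right). The axes differ in range: Thbs1 reaches -7.80 on the left, and on the right Fn1, Spp1, Tgfbi and F13a1 lie above 1 while Plau and Plaur lie below 0.

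Measured over control, the IL-6 groups had 4 members higher and 5 lower (IL-4/IL-6, where 35.4% and 37.5% of all genes were called) and 4 higher and 4 lower (IL-13/IL-6, 31.9% and 32.1%). Past a log2 change of 1 it was 2 higher and 4 lower in IL-4/IL-6 (13.1% and 19.9% of all genes) and 4 and 3 in IL-13/IL-6 (9.13% and 15.3%). Spp1 joined the higher genes in both, at 1.88-fold (log2 fold change 0.91, SE 0.11, adjusted p = 6.93e-07) and 4.16-fold (2.06, SE 0.11, adjusted p = 3.89e-11). Plaur joined the lower ones, at -0.79 (SE 0.08, adjusted p = 2.36e-07) and -0.66 (SE 0.08, adjusted p = 2.92e-06). Serpinb2 was lower in IL-4/IL-6 (-2.45, SE 0.66, adjusted p = 0.00323, with the group at the floor without IL-4/IL-6 replicate 3) and not called in IL-13/IL-6 (-0.33, 95% confidence interval -1.42 to 0.77, adjusted p = 0.595).

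IL-4 and IL-13 were compared with each other at their different doses. Of the 9 genes 2 were higher with IL-4, Fn1 (log2 fold change 0.94, SE 0.17, adjusted p = 0.00122) and Tgfbi (0.43, SE 0.07, adjusted p = 6.19e-04), and 2 lower, Spp1 (-0.46, SE 0.11, adjusted p = 0.00703) and Plau (-0.61, SE 0.07, adjusted p = 1.32e-05), against 5.16% and 7.61% of all genes. None of the 9 was past a log2 change of 1 (1.05% of all genes higher, 1.06% lower). Without the libraries that stood apart these differences were 0.79 for Fn1, 0.48 for Tgfbi, -0.36 for Spp1 and -0.56 for Plau, all called in a fit in which calls over all genes increased from 1779 of 13938 to 4732 of 14261. With 1 library left out that number was 2915 without IL-13 replicate 1, and 1167 and 1128 without IL-4 replicate 2 or 3 and 1149 and 1088 without IL-13 replicate 2 or 3. The intervals of the other 5 were -1.03 to 0.13 (Thbs1), -1.22 to 0.05 (F13a1), -0.25 to 0.16 (Tgm2), -0.10 to 0.25 (Plaur) and -1.78 to 1.81 (Serpinb2).

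Between IL-4/IL-6 and IL-13/IL-6, 2 members were higher and 4 lower (15.8% and 15.5% of all genes), and 0 and 3 past a log2 change of 1 (2.23% and 3.94%). Fn1 was 1.55-fold higher in IL-4/IL-6 (log2 fold change 0.63, SE 0.17, adjusted p = 0.0095), although replicate 2 of IL-4/IL-6, at 1446 CPM, lay within the range of IL-13/IL-6, and the difference was 0.83 (adjusted p = 3.04e-08) without the libraries that stood apart. Tgfbi was higher by 0.20 (adjusted p = 0.0424), a call lost in 9 of the 13 alternatives, the replicate block among them (adjusted p = 0.0597). Spp1 was 2.21-fold lower (-1.15, SE 0.11, adjusted p = 2.91e-07), F13a1 3.51-fold lower (-1.81, SE 0.23, adjusted p = 9.96e-06) and Plau 1.65-fold lower (-0.72, SE 0.07, adjusted p = 8.02e-07), each without overlap, and at -1.30, -1.89 and -0.82 without the libraries that stood apart. In that fit Plaur was called too (-0.24, adjusted p = 0.00914). Serpinb2 was lower as well (-2.12, SE 0.68, adjusted p = 0.0253), a call lost without IL-4/IL-6 replicate 1 or 2 or IL-13/IL-6 replicate 1 or 3, and its size rests on IL-4/IL-6 replicate 3, without which that group was at the floor. For Thbs1 the difference was -0.93 (95% confidence interval -1.67 to -0.19, adjusted p = 0.0521), and it was called with DESeq2 (adjusted p = 0.00908), with upper-quartile scaling (0.0473) and with a replicate block (0.0405).

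The test of whether IL-6 acted differently on top of IL-4 and of IL-13 called 1 member, Spp1, as lower, where 3.22% of all genes were called higher and 4.42% lower. None was past a log2 change of 1 (0.796% of all genes higher, 1.08% lower). With upper-quartile scaling the share of higher calls in this test was 31.7% in place of 42.2%. Besides F13a1, the interactions that were not called were -0.31 for Fn1 (95% confidence interval -0.82 to 0.20), -0.47 for Thbs1 (-1.42 to 0.47), -0.22 for Tgfbi (-0.44 to -0.01), -0.07 for Tgm2 (-0.36 to 0.22), -0.11 for Plau (-0.32 to 0.11), -0.21 for Plaur (-0.46 to 0.04) and -2.14 for Serpinb2 (-4.51 to 0.24). Without the 2 libraries that stood apart Fn1 was at 0.05 (adjusted p = 0.852), and 5 members were called, all lower, where calls over all genes also increased, from 1065 of 13938 to 2514 of 14261: Spp1, F13a1 (-1.26, adjusted p = 0.037), Tgfbi (-0.27, adjusted p = 0.0321), Plau (-0.26, adjusted p = 0.00843) and Plaur (-0.36, adjusted p = 0.0104).

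**Figure D4:**
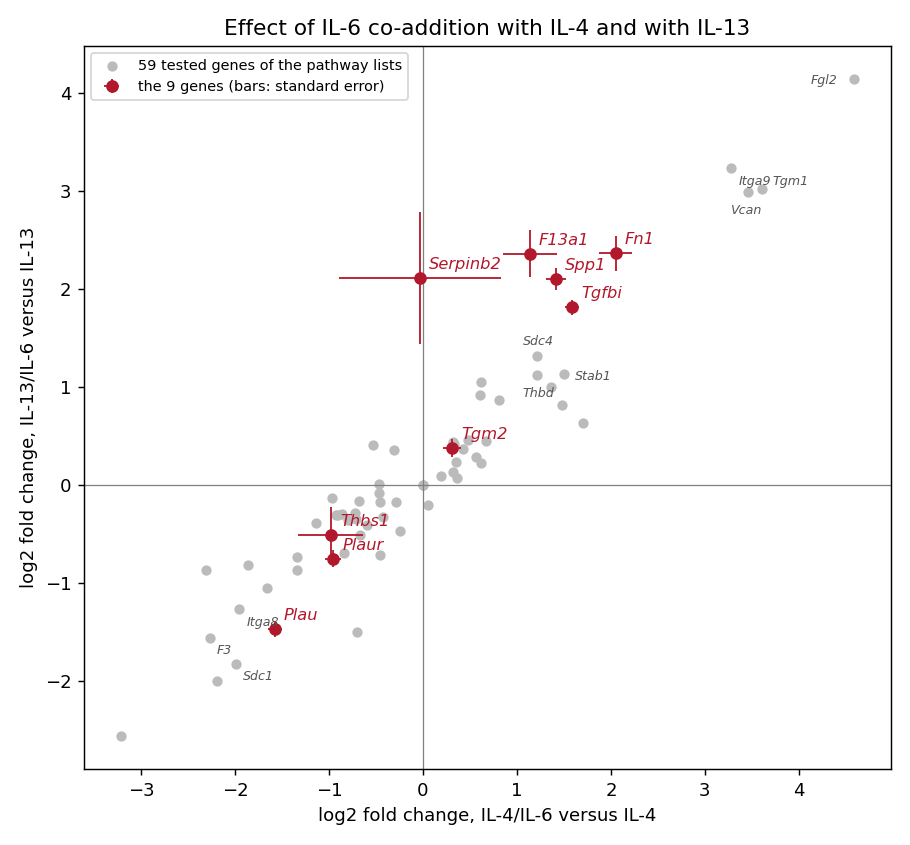
Log2 fold change of IL-4/IL-6 over IL-4 (x axis) against IL-13/IL-6 over IL-13 (y axis) for the 9 genes (red, bars are standard errors) and 59 tested genes of related pathways (grey, 10 named). Fn1, Spp1, Tgfbi and F13a1 lie at the upper right, Plau and Plaur at the lower left, and Serpinb2 at -0.03 and 2.11.

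Levels were compared between genes on the deposited FPKM scale, which divides by gene length. Spp1 led in all groups, from 1288 ± 80.7 FPKM (SD, n = 3) with IL-4 to 7342 ± 408 with IL-13/IL-6. Tgfbi came next except with IL-13, where Plau (367 ± 14.9 FPKM) exceeded it (193 ± 10.6). Fn1 moved from place 8 of 9 in control (4.51 ± 0.49 FPKM) to place 4 with IL-4 (43.4 ± 4.79) and place 3 with IL-4/IL-6 (169.5 ± 53.0). Thbs1 moved from place 3 in control (58.6 ± 3.24 FPKM) to place 8 with IL-4 (0.254 ± 0.0693) and place 9 with IL-13/IL-6 (0.237 ± 0.108). The gene 1 place higher lay within the spread, F13a1 (0.284 ± 0.0443 FPKM) with IL-4 and Serpinb2 (0.428 ± 0.240) with IL-13/IL-6. In control, Tgm2 (34.2 ± 2.64 FPKM) and Plaur (32.3 ± 1.93), the neighbors at places 5 and 6, lay within their spread of each other. Urokinase and its receptor can be read side by side on this scale: Plau was at 43.1 ± 0.90 and Plaur at 32.3 FPKM in control, against 367 and 33.7 FPKM with IL-13 and 73.9 and 16.8 FPKM with IL-4/IL-6.

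**Figure D5:**
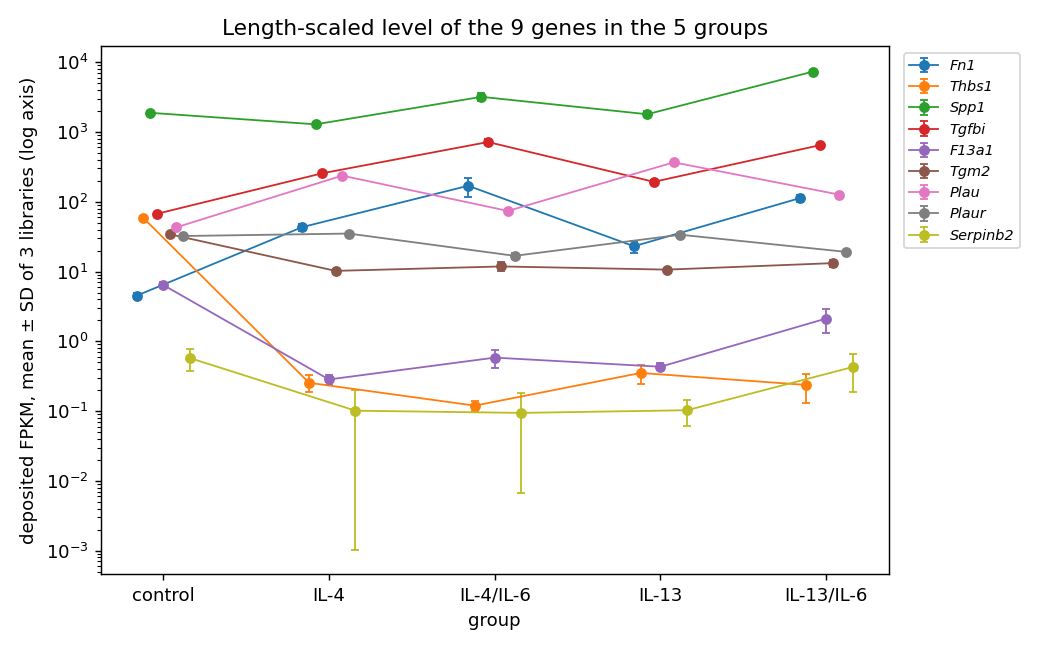
Deposited FPKM of the 9 genes (mean and SD of 3 libraries, y axis, log scale) in the 5 groups (x axis), where lines join the values of a gene and carry no order. Spp1 is the highest in every group (1885 FPKM in control), while Thbs1 and F13a1 drop from control to IL-4 and Fn1 rises.

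The genes around these 9 in the same pathways were taken from 6 lists of 96 genes, of which 59 were tested and 15 had no count in any library, among them the fibrinogen genes Fga, Fgb and Fgg and the plasminogen gene Plg. In all, 19 were higher and 33 lower with IL-4 than in control and 17 and 31 with IL-13, where 32.1% and 35.9% of all tested genes were called higher and lower with IL-4 and 29.0% and 31.1% with IL-13. Their median log2 changes were -0.44 and -0.36 against -0.05 and -0.02 over all tested genes. With IL-6, 21 were higher and 24 lower over IL-4 and 17 and 16 over IL-13, where the shares over all genes were 20.7% and 18.7%, and 12.1% and 13.5%. The medians were -0.31 and -0.08 against 0.04 and 0.01 over all genes. The counts of each list below are to be read against these shares, and with so few genes a list they are descriptions only. Genes with counts in control alone, such as Sparc and Thbs2, passed the filter on low counts only through that group.

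Among plasminogen activators and inhibitors (5 of 11 tested) 4 were lower and 0 higher with each single cytokine, and with IL-6 1 was higher and 1 lower over IL-4 and 2 were lower over IL-13. Serpine2, a thrombin and urokinase inhibitor, fell from 18.5 ± 1.73 CPM (SD, n = 3) in control to 0.528 ± 0.142 with IL-4 (log2 fold change -5.11, SE 0.28, adjusted p = 6.15e-11) and 0.528 ± 0.324 with IL-13 (-5.13, SE 0.28, adjusted p = 8.96e-11). Among the genes for plasminogen and urokinase binding or uptake (8 of 9 tested) 4 were higher and 3 lower with IL-4, and 4 and 2 with IL-13, while IL-6 gave 3 and 4 over IL-4 and 2 and 1 over IL-13. Vldlr, an uptake receptor of urokinase complexes, was at 3.03 CPM in control and at 0.145 and 0.0891 CPM with IL-4 and IL-13.

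Of the coagulation genes and their surface regulators (15 of 24 tested) 3 were higher and 9 lower with either single cytokine. The thrombin receptor genes F2r (14.8 CPM in control, 0.688 and 0.641 with IL-4 and IL-13), F2rl2 (19.3, 2.21 and 1.02 CPM) and F2rl3 (3.48, 0.234 and 0.147 CPM) and the factor V gene F5 (30.1, 2.28 and 2.34 CPM) were among the lower ones, and F2rl2 and F2rl3 are known from mouse platelets, whose markers were also lower. With IL-6, 5 were higher and 7 lower over IL-4, and 4 and 2 over IL-13. Thbd, which encodes the anticoagulant thrombomodulin, rose from 15.5 ± 0.40 to 36.0 ± 2.46 CPM on top of IL-4 (1.21, SE 0.09, adjusted p = 4.23e-09) and from 23.7 ± 1.13 to 51.5 ± 5.21 CPM on top of IL-13 (1.12, SE 0.08, adjusted p = 1.39e-08). F3, the tissue factor gene that starts coagulation, fell from 2.81 to 0.581 CPM and from 1.27 to 0.427 CPM (adjusted p = 3.03e-05 and 0.00525).

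Of other matricellular and adhesive proteins (12 of 26 tested) 5 were higher and 7 lower with IL-4, and 4 and 7 with IL-13, and IL-6 gave 6 higher and 2 lower over IL-4 and 6 and 3 over IL-13. Fgl2, a fibrinogen-like protein with prothrombinase activity, rose 24.0-fold with IL-6 on top of IL-4 (log2 fold change 4.58, SE 0.13, adjusted p = 3.99e-14) and 17.6-fold on top of IL-13 (4.14, SE 0.13, adjusted p = 3.47e-13), from 7.81 to 188 CPM and from 6.02 to 106 CPM. Vcan, the proteoglycan versican, rose by 3.46 and 2.98 on the log2 scale (adjusted p = 3.56e-09 and 5.56e-08). Edil3, an integrin ligand, rose 7.99-fold with IL-4 and 8.88-fold with IL-13 over control (adjusted p = 1.43e-09 and 9.79e-10). Sparc (2.70 CPM in control) and Thbs2 (1.11 CPM), made mostly by stromal cells, had no count in any cytokine library, like Col1a1, so that Sparc was at least 16.5-fold and Thbs2 at least 6.79-fold lower with IL-4, against 3 counts per library.

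Of the matrix receptors (17 of 19 tested) 7 were higher and 9 lower with IL-4 and 6 and 8 with IL-13, and IL-6 gave 5 higher and 10 lower over IL-4 and 4 and 8 over IL-13. Itga9, an integrin chain that binds osteopontin and fibronectin variants, rose 9.70-fold over IL-4 and 9.36-fold over IL-13 (adjusted p = 1.52e-09 and 2.37e-09). The heparan sulfate proteoglycan genes moved apart: Sdc4 rose by 1.21 and 1.32 on the log2 scale (adjusted p = 9.79e-10 and 7.17e-10) and Sdc1 fell by 1.99 and 1.82 (adjusted p = 6.15e-11 and 1.61e-10). Sdc3 was lower over IL-4 (-0.97, adjusted p = 2.81e-07) and not called over IL-13 (-0.13). Stab1, a scavenger receptor for matrix proteins, rose by 1.51 and 1.13 (adjusted p = 2.40e-08 and 1.43e-06), and Itga8 fell by 1.96 and 1.27 (adjusted p = 0.00493 and 0.00658). Of the other transglutaminases (2 of 7 tested) Tgm1 was lower with IL-4 and IL-13 and rose from 0.273 to 3.39 CPM and from 0.232 to 1.93 CPM with IL-6 (3.60 and 3.02, adjusted p = 1.06e-08 and 5.14e-07), and Tgm4 was not called in these 4 contrasts.

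The genes whose log2 CPM followed a member most closely over the 15 libraries were Itsn1 for Fn1 (Pearson r 0.998, then Kat14 0.992 and Etv3 0.988) and Spic for Thbs1 (0.993, then Tmem51 and the granulocyte gene Ngp, 0.992 each). For Spp1 they were Sfxn5, Xbp1 and the platelet chemokine gene Pf4 (0.976, 0.975 and 0.974), for Tgfbi Snx1, Ctsl and P2ry6 (0.991 each), and for F13a1 AB124611, Fam234a and Sik3 (0.971, 0.963 and 0.963). Those for Tgm2 were Stx5a, Il12b and Sema4a (0.989, 0.981 and 0.981), for Plau Wee1, Fignl1 and Nap1l1 (0.990, 0.989 and 0.987), and for Plaur Rnf128, Stmn1 and Prdx1 (0.985, 0.983 and 0.980). Serpinb2 had the lowest values, with Fpr1, Gbp5 and Acod1 (0.914, 0.905 and 0.889). These are descriptions over libraries that share 5 groups. Of the 27 genes, 6 were also in the top 3 by Spearman's rho and 5 by the 5 group means.

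The members lie in GRCm38 at chr1:71585520-71653200 (Fn1, minus strand), chr2:118111876-118127133 (Thbs1), chr5:104435118-104441050 (Spp1), chr13:56609523-56639562 (Tgfbi), chr13:36867178-37050244 (F13a1, minus), chr2:158116402-158146436 (Tgm2, minus), chr14:20836660-20843385 (Plau), chr7:24462484-24475968 (Plaur) and chr1:107511423-107535478 (Serpinb2), on the plus strand unless stated, and all are protein coding. Exons of Tgfbi, Plau and Plaur overlap no other gene in the GENCODE annotation. Besides Serpinb2, the exons of Tgm2 overlap Rprd1b on the opposite strand (423 to 673 counts per library) and those of Spp1 overlap Gm42793 on the same strand (9 to 205 counts), and the genes overlapping Fn1, Thbs1 and F13a1 had at most 3 counts. Whether the counting used strand is not given in the sources used here, so Tgm2 and Spp1 may share some reads with these neighbors.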

How the data were processed

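RNA of mouse BMDMs was measured in 15 libraries, 3 in each of 5 groups set by the sample titles. The authors deposited raw counts per gene (whole numbers, no normalization) and FPKM values per library, which equal those counts divided by a gene length and the summed count of the library. Per the labels, the submitters' processing notes name CASAVA, Bowtie2 2.2.3, HISAT2 2.1.0, TopHat2, DESeq2 and GRCm38 without roles, and the counting tool, its use of strand and its filters are not given in the sources used here. Symbols were found for 53274 of 53465 identifiers.

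Counts were fitted with edgeR 4.0.16 in R 4.3.3, in a single fit of all 15 libraries without covariates (filterByExpr with a minimum count of 10, TMM factors of 0.897 to 1.05, quasi-likelihood F-test, Benjamini-Hochberg adjustment over 13938 genes). A gene was called at an adjusted p under 0.05, and past 1 also at a log2 fold change beyond 1. Normalized CPM used the TMM factors, log2 CPM a prior count of 2, and levels between genes used FPKM. A group with at most 3 counts in every library was taken as at the floor. The steps were tested on simulated counts. Members, pathway lists and marker lists were chosen with earlier results of these data known. Named besides the members were, of the pathway genes past 1 in the same direction in both IL-6 contrasts (11) or in both single-cytokine contrasts (27), the 10 of each with the largest smaller change, and the 3 genes most correlated with each member. Of these genes, 1 is not reported here. Vwf, Itgam and Postn are in a marker list and a pathway list. Promoter sequences came from RefSeq (GRCm38.p6) and loci from GENCODE for GRCm38. The fits were repeated with upper-quartile factors, in DESeq2 1.42.0, without the filter, with a replicate block, on the contrast's own groups only and with each library left out in turn. FPKM were also rescaled to TPM, and likeness was also taken by rank and by group means. A fit of the 12 cytokine libraries and a fit without the 2 libraries that stood apart were chosen after seeing the data. Low counts set the precision of Thbs1, F13a1 and Serpinb2 in the cytokine groups. The pairing of replicate numbers was checked and not found.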

Additional observations from a re-analysis of the deposited data

Results flagged for a closer look

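The effect of IL-6 co-addition on Spp1 differed between the cytokines it was combined with, by the interaction term of the edgeR fit. It was -0.6837 on the log2 scale with IL-4 minus with IL-13 (SE 0.15, adjusted p = 0.00732), from increases of 2.67-fold and 4.28-fold, and Spp1 RNA rose with IL-6 in both. All 3 IL-13/IL-6 libraries (11751 to 13148 CPM) lay above all 3 IL-4/IL-6 libraries (4791 to 6769.7 CPM). The call held in each of the alternatives run for it, with adjusted p between 5.65e-14 and 0.022.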

How the results depend on the processing

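No called result reversed its direction under any alternative run. In IL-4/IL-6 versus IL-4 the members lower past 1 (1) became 3 with upper-quartile factors, 2 without the filter, 2 in a fit of the contrast's own groups and 3 without the libraries that stood apart, and ranged from 1 to 3 when each library was left out. In IL-4 versus IL-13 the members higher past 1 (0) ranged from 0 to 1. In IL-4/IL-6 versus IL-13/IL-6 the members higher (2) became 1 with upper-quartile factors, without the filter, in a fit of the contrast's own groups and in the fit of the 12 cytokine libraries, and ranged from 1 to 2 over the libraries left out. In the interaction the members lower (1) became 2 with DESeq2, 3 without the filter and 5 without the libraries that stood apart, and ranged from 1 to 3. Those lower past 1 (0) became 1 with DESeq2, without the filter and without the libraries that stood apart, and ranged from 0 to 1. Among the genes most like a member, 6 were kept by Spearman's rho and 5 by group means. The cause of these shifts was not tested, except that fewer samples entered where libraries were left out.

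Replicate numbers were shared by name only: over 30 pairs of same-numbered libraries the correlation of deviations from the group means was -0.276 to 0.163 (median -0.008). With the replicate block the members higher in IL-4/IL-6 versus IL-13/IL-6 became 1, and in the interaction 2 were lower and 1 was lower past 1. For single members, 997 values stayed on the same side of the threshold, 27 lost a call and 25 gained it, some differences that were not called changed sign, and the calls lost were those of Thbs1, Tgfbi, Tgm2 and Serpinb2 named above. Thbs1 in IL-4/IL-6 versus IL-4 was also lost in the fit of the 12 cytokine libraries (adjusted p = 0.0571). Ranks by FPKM were the same for all 9 members in TPM, and for 7 of 9 in control without control replicate 3. Low counts limit Serpinb2 and Thbs1 in the cytokine groups.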

Other observations

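Within a group, single libraries did not move all members alike. IL-4/IL-6 replicate 2, which had the lowest TMM factor (0.897), held the lowest Fn1 of its group (1446 CPM, against 2236 and 2559) and the highest Spp1 (6769.7 CPM, against 5239 and 4791), Plau (211 CPM, against 174 and 172) and Plaur (53.7 CPM, against 45.8 and 40.7). IL-13/IL-6 replicate 2 held the highest F13a1 of its group (20.7 CPM, against 12.1 and 11.1) and the lowest Serpinb2 (7 counts, against 21 and 27). IL-13 replicate 1 held the lowest Fn1 of its group (202 CPM, against 288 and 296) and the highest Spp1 (3258 CPM, against 2667 and 2751) and Plau (900.3 CPM, against 824 and 822).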
